A study of Rattus norvegicus with 8 samples.

Results

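The genes of the cytosolic and mitochondrial ribosomal proteins were examined in rat liver after a high-phosphorus (HP) diet. Members were found by symbol on the array: 129 genes had a symbol beginning Rpl, Rps, Mrpl or Mrps followed by a digit or, for the acidic proteins of the stalk, by p. Leaving out 2 pseudogene-like symbols (Rpl37-ps2 and Rps4x-ps1) gave 127 genes of the 14218 that have a probe set of their own. Of these, 47 encode cytosolic ribosomal proteins and 73 mitochondrial ones. By symbol, 33 of the cytosolic proteins belong to the large and 14 to the small subunit, and 46 and 27 of the mitochondrial ones. The other 7 (Rps6ka2 to Rps6ka6, Rps6kb1 and Rps6kc1) carry similar symbols but encode S6 kinases, which are signalling enzymes, and were counted apart.

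The study used male Wistar rats that were 8 weeks old according to the labels. For 24 days they were given either the control diet, based on AIN-93G with 0.3% phosphorus, or the HP diet with 1.2% phosphorus. Of 5 rats fed per diet, 4 were hybridised, with 1 Affymetrix array per liver, so that n = 4 on each diet. Values are log2 levels summarised by the authors with FARMS, a factor analysis of the probes of a probe set that returns a nearly constant value where it finds no shared variation. The median over all probe sets was 6.65 on every array.

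A cytosolic ribosome translates the messages of the nucleus, and its proteins are made in matched amounts, one copy of nearly every protein per ribosome. Their mRNAs typically start with an uninterrupted run of pyrimidines, the 5′ terminal oligopyrimidine (TOP) tract, through which the TOR kinase controls their translation according to nutrient supply. Mitochondrial ribosomal proteins are also encoded in the nucleus but are imported into mitochondria, where their ribosomes make a few subunits of the respiratory chain. The liver, which exports most plasma proteins, is rich in ribosomes of both kinds.

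The tract was looked for in RefSeq sequences around the annotated starts (build GRCr8). Windows of 60 bases, 40 before and 20 from the start on, are printed for some of the highest and lowest genes of the classes. Capitals mark the longest run of C and T. Rps24 (chr16:96477-96536, + strand) and Rps15a (chr1:181860265-181860324, - strand) encode small-subunit proteins, Rpl27a (chr1:172974533-172974592, + strand) and Rpl13a (chr1:104748894-104748953, - strand) large-subunit proteins, and Mrpl18 (chr1:50384912-50384971, + strand) and Mrpl47 (chr2:117447342-117447401, - strand) proteins of the mitochondrial large subunit.
Rps24: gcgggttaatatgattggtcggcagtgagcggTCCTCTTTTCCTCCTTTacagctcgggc
Rps15a: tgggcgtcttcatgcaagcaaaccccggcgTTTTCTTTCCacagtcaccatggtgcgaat
Rpl27a: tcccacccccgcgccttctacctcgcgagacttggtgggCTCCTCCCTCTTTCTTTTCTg
Rpl13a: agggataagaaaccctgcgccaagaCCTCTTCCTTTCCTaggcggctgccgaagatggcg
Mrpl18: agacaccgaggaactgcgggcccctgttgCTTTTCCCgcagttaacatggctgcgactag
Mrpl47: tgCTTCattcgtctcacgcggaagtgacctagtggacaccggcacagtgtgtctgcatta
The longest run was 17 bases in Rps24, 10 in Rps15a, 20 in Rpl27a and 14 in Rpl13a. It was 8 bases in Mrpl18 and 4 in Mrpl47. The runs of Rps24 and Rpl27a span the annotated start. Those of the other 4 genes lie wholly before it, directly in Rps15a, 1 base away in Rpl13a, 3 in Mrpl18 and 34 in Mrpl47, so that they are not part of the annotated transcript. Not every cytosolic gene has a long run: in Rpl11, not printed here, the longest was 6 bases and ended 31 bases before the start.

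A window was found for 40 of the 47 cytosolic and 59 of the 73 mitochondrial genes. A run of at least 8 pyrimidines stood in 28 of the 40 cytosolic windows (70%) and in 14 of the 59 mitochondrial ones (23.7%), against 24% of the 27457 windows in the table. Counting only runs that include the annotated first base, the shares were 35% (14 of 40), 3.39% (2 of 59) and 4.43%. Runs of at least 8 purines, counted in the same way, were present in 10% of the cytosolic, 8.47% of the mitochondrial and 24% of all windows. In the 300 bases from 250 before to 50 after the start, the letters CCGGAAG, part of a site bound by ETS-family factors, were found on either strand in 25% of cytosolic and 33.9% of mitochondrial promoters, against 9.22% of all. AAGATGG, from the core of the YY1 site, was found in 20% and 25.4%, against 7.3% of all. CACGTG, the E-box bound by Myc and related factors, was in 7.5% and 10.2%, against 6.65% of all. These are matches of letters and not measured binding.

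Only probe sets that spanned at least 0.05 between the lowest and the highest of the 8 rats were tested, since the rest are nearly constant. This minimum was met by 33 of 47 cytosolic genes (70.2%), 21 of 73 mitochondrial genes (28.8%) and 0 of 7 S6 kinases, against 13.4% of all probe sets (4155 of 31042). Each of these 54 ribosomal protein genes had 1 such probe set. The class shares count genes, whereas the 13.4% counts probe sets. By probe set, 54 of the 149 for ribosomal protein genes met the minimum. The 66 genes left out include Rplp0, the stalk protein P0 that is often used as a reference gene. Its nearly constant value does not by itself show a stable level. Just inside the minimum were Mrps16 (span 0.0544) and Rpl7l1 (0.0579), and just outside were Mrpl20 (0.0331) and Mrps12 (0.0170). The median span of the cytosolic genes that were left out was 0.000404.

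The differences between the diets were small. Of the 33 cytosolic genes, 28 (84.8%) had a higher mean in HP diet-fed rats and 5 a lower one, with a median difference of 0.034 on the log2 scale, or 1.02-fold. The difference lay between -0.07 for Rpl4 and 0.18 for Rpl39l1, and the quartiles were 0.019 and 0.067. Of the 21 mitochondrial genes, 8 (38.1%) had a higher mean and 13 a lower one, with a median of -0.012 and a range from -0.14 for Mrpl18 to 0.12 for Mrpl47. This direction turned when each array was centred on its median (12 of 21 above 0, median 0.009), without HP 1 (12 of 21, median 0.011) and without control 3 (16 of 21, median 0.029). Over all 4155 probe sets tested, the difference was above 0 in 43.5%, with a median of -0.022. It was above 0 in 43.3% of the 2817 probe sets in the range of the cytosolic means, with both ends of that range trimmed. The dim members Rps4y2 (mean 7.42) and Rpl7l1 (8.41) widen the range downwards, so it is not matched to the bright majority of the class. Members of a class moved together from rat to rat, so the counts of genes above 0 are not independent and were not tested.

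**Figure D1:**
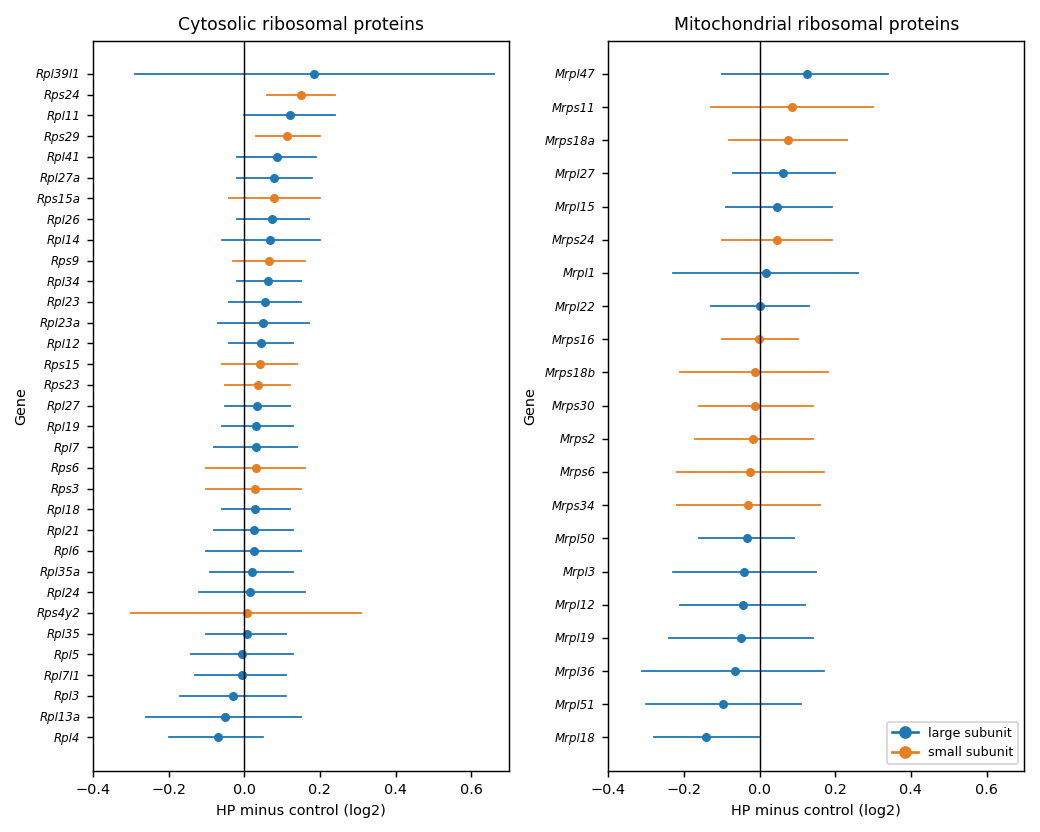
HP minus control difference (log2, horizontal axis) of each ribosomal protein gene that spanned at least 0.05, with its 95% limma interval, in 33 cytosolic (left) and 21 mitochondrial genes (right); blue is the large and orange the small subunit, n = 4 rats per diet. Most cytosolic points lie right of 0 and 13 of 21 mitochondrial points left of it, a direction that turned after centring and without control 3 or HP 1, and the intervals of Rps24, Rps29 and, narrowly, Rpl11 stay above 0.

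limma called none of the 54 genes at an adjusted p under 0.05 (0 of 4155 probe sets, 0%, in either direction). The smallest adjusted p was 0.267, for Rps24. At an unadjusted p under 0.05 there were 3 cytosolic genes higher, Rps24, Rps29 and Rpl11, against 5.37% of all tested probe sets, and 1 mitochondrial gene lower, Mrpl18, against 7.29%. Rank products, which compare the ranks of all 16 differences between an HP and a control rat and do not use the spread within a diet, called 2 members higher at an FDR under 0.05, Rps24 (FDR = 0.034) and Rps29 (FDR = 0.0497), against a background of 1.14% of 31099 probe sets, or 8.5% of those that spanned 0.05. They called 0 lower, against 1.59% of all or 11.9% of those that spanned 0.05, and Mrpl18 stood at FDR = 0.0502. Nearly constant probe sets, which are most of those ranked, make these FDR values and those given below unreliable. With only probe sets that spanned 0.05 ranked, 0 members were called higher. The diets did not overlap for Rps24, Rps29 and Mrpl18, against 3.1% of tested probe sets higher without overlap and 4.07% lower. Of the 33 cytosolic genes, 9.09% were thus higher at the unadjusted threshold, 6.06% were called higher by rank products and 6.06% were higher without overlap. Over all 54 genes these shares were 5.56%, 3.7% and 3.7%, near or below the background. The 95% interval of the difference lay within 0.25 of 0 in 30 of 33 cytosolic and 15 of 21 mitochondrial genes.

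In the small cytosolic subunit, all 9 genes had a mean above the control mean, with a median difference of 0.042. Rps24, a protein of the small subunit needed for processing the 18S rRNA precursor, was at 11.15, 11.13, 11.19 and 11.25 in the control rats and at 11.30, 11.36, 11.32 and 11.34 in the HP diet-fed rats. Every HP value lay above every control value, and the difference was 0.15 with a standard error of 0.04 (95% interval 0.06 to 0.24), or 1.11-fold. This was the smallest p an exact two-sided permutation test of 4 against 4 rats can give (p = 0.0286), with a limma adjusted p of 0.267. Every gene without overlap gives this p, and lack of overlap was a reason for naming genes. For Rps24, Rps29 and Mrpl18 it therefore adds nothing to the lack of overlap. Leaving out 1 rat at a time moved the difference of Rps24 between 0.13 and 0.17. Rank products called Rps24 without any 1 of the control rats but not without any 1 of the HP rats.

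Rps29, a small zinc-binding protein of the head of the subunit, was at 12.29, 12.34, 12.41 and 12.38 on the control diet and at 12.49, 12.46, 12.42 and 12.49 on the HP diet. The diets came close but did not overlap, with control 3 just under HP 3. The difference was 0.11 with a standard error of 0.04, or 1.08-fold (exact permutation p = 0.0286, limma adjusted p = 0.332). Rps29 also serves as a reference gene in expression studies.

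Rps15a was at 10.91, 10.92, 11.03 and 11.11 in control rats and between 11.06 and 11.08 in all 4 HP rats. The HP values thus lay inside the control range, and the difference was 0.08 with a standard error of 0.05. Rps9, which takes part in decoding accuracy, differed by 0.06 with a standard error of 0.04. The 4 smallest differences of this subunit were 0.01 for Rps4y2, a paralogue of the X-linked Rps4x, 0.03 for Rps3, which lines the mRNA entry, 0.03 for Rps6, the substrate of the S6 kinases, and 0.04 for Rps23 of the decoding centre. Rps4y2 ran apart from the rest of its class, with control values of 7.43, 7.66, 7.19 and 7.39 and HP values of 7.22, 7.57, 7.63 and 7.28.

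In the large cytosolic subunit, 19 of 24 genes had a higher mean on the HP diet (median difference 0.031). Rpl11, which joins the 5S rRNA particle and can bind Mdm2 when ribosome assembly fails, was at 11.40, 11.40, 11.45 and 11.58 in the control rats and at 11.55, 11.64, 11.59 and 11.53 in the HP rats. Control 4 was above HP 1 and HP 4, so the diets overlapped. The difference was 0.12 with a standard error of 0.05 (exact permutation p = 0.0857, limma adjusted p = 0.391).

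Rpl39l1, named as a paralogue of the exit-tunnel protein Rpl39, had the largest difference, 0.18, and the largest standard error of the class, 0.21. It is dim, with a mean of 6.54 that lies below the median over all probe sets (6.65). Its values were 6.45, 6.29, 6.79 and 6.25 in control and 6.90, 6.39, 7.03 and 6.20 in HP rats, with wide overlap. Rpl41, the smallest ribosomal protein, differed by 0.09 and Rpl27a by 0.08, each with a standard error under the difference (0.05 and 0.04) and adjusted p not under the threshold.

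The lowest differences of the subunit were those of Rpl4 and Rpl13a. Rpl4, whose extension lines the exit tunnel, was at 11.38, 11.40, 11.52 and 11.59 in control and 11.37, 11.45, 11.43 and 11.36 in HP rats. Control 3 and control 4 were above all HP rats, while control 1 and control 2 lay among them, and the difference was -0.07 with a standard error of 0.06. Rpl13a, released from the ribosome in the interferon response and also a common reference gene, was at 11.46, 11.41, 11.71 and 11.79 in control and 11.67, 11.53, 11.45 and 11.51 in HP rats, a difference of -0.05 with a standard error of 0.09. Without control 4 its sign turned (0.01). Rpl3, at the peptidyl transferase centre, differed by -0.03 and the paralogue Rpl7l1 by -0.01, and Rpl19, another reference gene, by 0.03 with a standard error of 0.04.

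**Figure D2:**
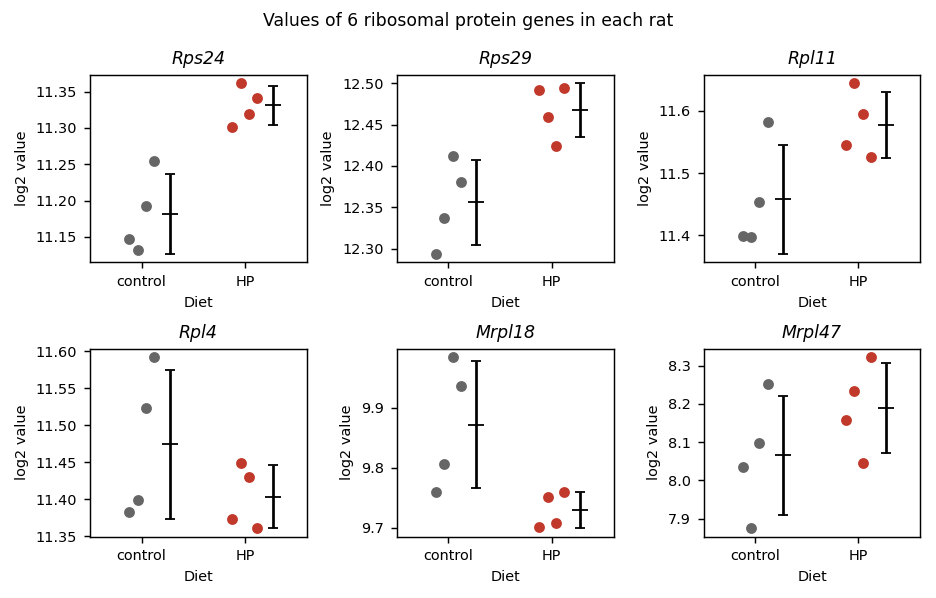
Log2 values (vertical axis, a separate range for each gene) of Rps24, Rps29, Rpl11, Rpl4, Mrpl18 and Mrpl47 in 4 control (grey) and 4 HP diet-fed rats (red), points ordered by rat number, with bars for the mean and SD of each diet. Rps24, Rps29 and Mrpl18 show no overlap between diets, whereas Rpl11, Rpl4 and Mrpl47 do.

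Among genes named for the mitochondrial large subunit (Mrpl), 5 of 12 had a higher mean on the HP diet (median difference -0.037). Mrpl18, which is thought to help import 5S rRNA, was at 9.76, 9.81, 9.98 and 9.94 in the control rats and at 9.70, 9.75, 9.71 and 9.76 in the HP rats. All HP rats were below all control rats, but control 1 (9.7598) and HP 4 (9.7592) were almost equal. The difference was -0.14 with a standard error of 0.06 (exact permutation p = 0.0286, limma adjusted p = 0.386) and moved between -0.18 and -0.10 when 1 rat was left out.

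Mrpl51 was at 8.97, 9.16, 9.39 and 9.30 in control and 9.14, 9.17, 9.06 and 9.07 in HP rats, a difference of -0.10 with a standard error of 0.09. Control 1 lay below every HP rat and control 3 and control 4 above them. Mrpl47, at the other end, was at 8.04, 7.88, 8.10 and 8.25 in control and 8.16, 8.23, 8.05 and 8.32 in HP rats (0.12 with a standard error of 0.10). The diets overlapped for both genes. Mrpl36 differed by -0.07, Mrpl19 by -0.05, Mrpl27 by 0.06, Mrpl15 by 0.05 and Mrpl1 by 0.02, with standard errors between 0.06 and 0.11.

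Among genes named for the mitochondrial small subunit (Mrps), 3 of 9 had a higher mean (median difference -0.011). The class follows the symbol, which need not match the subunit in which a protein sits. Mrps11 was at 7.92, 8.13, 8.22 and 8.30 in control and 8.20, 8.38, 8.16 and 8.19 in HP rats, with control 1 the lowest and HP 2 the highest of all rats (0.09 with a standard error of 0.09). Mrps18a and Mrps18b, paralogues that are thought to reside in different subunits, differed by 0.08 with a standard error of 0.07 and by -0.01 with a standard error of 0.09, and the related Mrps18c did not reach the minimum span. The other named genes, Mrps24 (0.05), Mrps2 (-0.02), Mrps6 (-0.03), Mrps30 (-0.01) and Mrps34 (-0.03), had differences below their standard errors.

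The members of a class moved together from rat to rat. The median correlation between 2 cytosolic genes over the 8 rats was 0.69 (528 pairs) and stayed at 0.75 after each diet's mean was removed; for mitochondrial genes it was 0.58 (210 pairs) and 0.65, and for all tested probe sets 0.01 and 0.00. The points share 8 arrays, and for most cytosolic genes bright signals.

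Each rat was described by the median deviation of a class from its gene means. For the cytosolic class it was -0.081, -0.083, 0.012 and 0.056 in control rats 1 to 4 and 0.012, 0.043, 0.025 and 0.012 in the HP rats. Control 1 and control 2 were low and control 4 was the highest of all rats, so that the HP rats lay within the control range. For the mitochondrial class it was -0.108, -0.042, 0.099 and 0.048 in control and -0.057, 0.044, -0.015 and 0.021 in HP rats. In this class control 1 was the lowest and control 3 the highest of all rats.

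**Figure D3:**
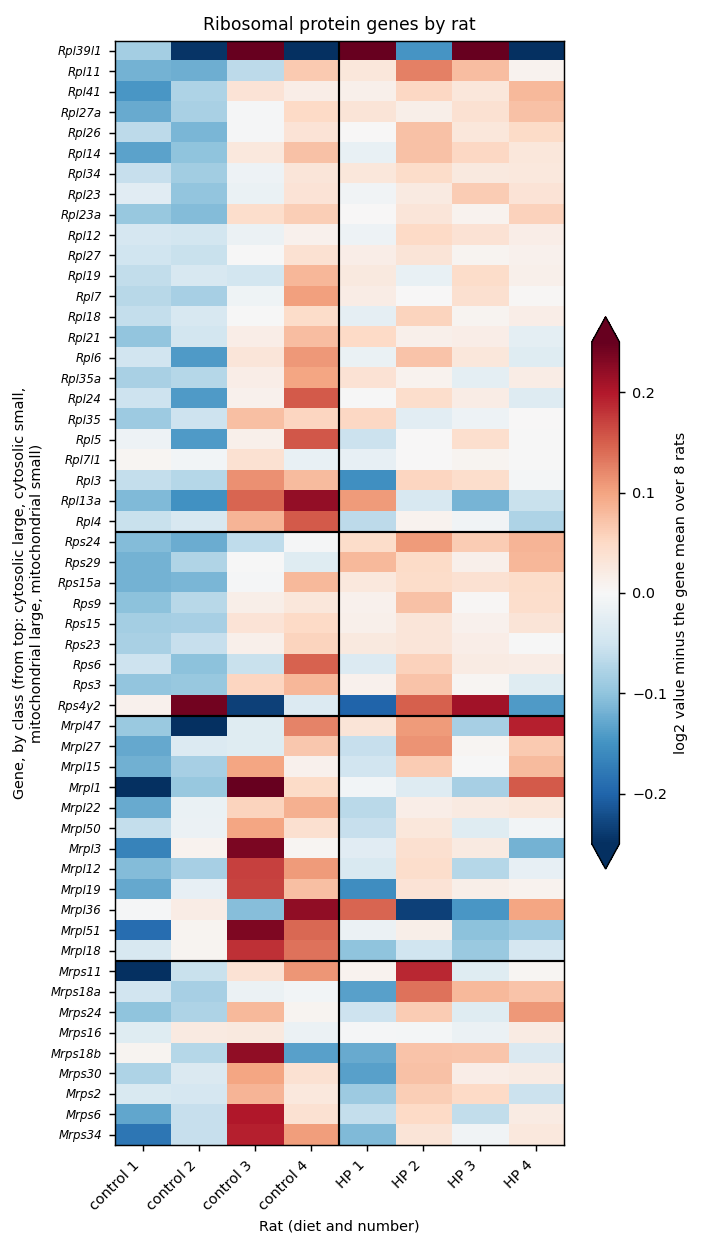
Deviation of each gene's log2 value from its mean over 8 rats (colour, red above and blue below, darkest at 0.25 or beyond) for 54 ribosomal protein genes (rows, grouped by class and ordered by difference) and 8 rats (columns). Control 1 and control 2 are blue and control 4 red in most cytosolic rows, and the HP columns are paler.

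**Figure D4:**
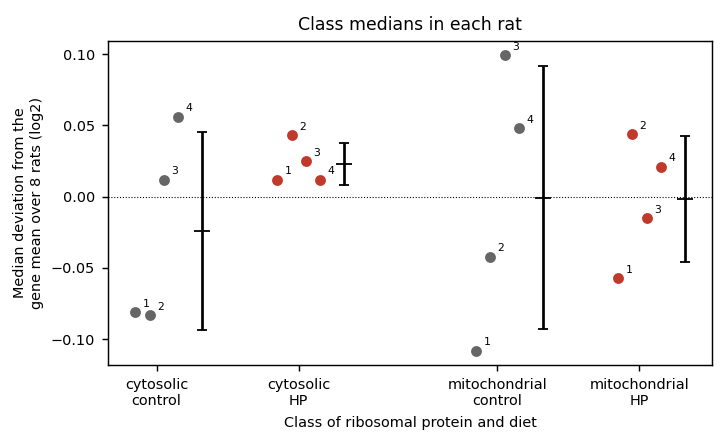
Median deviation of the 33 cytosolic and 21 mitochondrial genes from their gene means (log2, vertical axis) in each rat, numbered by rat, with the mean and SD of the 4 rats per diet (black). The HP rats lie inside the range of the control rats in both classes.

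The spread of the class medians among 4 rats, as an SD, was 0.069 for control and 0.015 for HP diet-fed rats in the cytosolic class, and 0.092 and 0.044 in the mitochondrial class. Gene by gene, the SD among control rats was larger than among HP rats in 30 of 33 cytosolic genes (median SD 0.0843 against 0.0305) and 17 of 21 mitochondrial genes (0.128 against 0.0737). Of all tested probe sets 67.9% had the larger SD on the control diet (0.139 against 0.105). Since the members are correlated these counts are not independent, and the difference in spread was not tested.

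**Figure D5:**
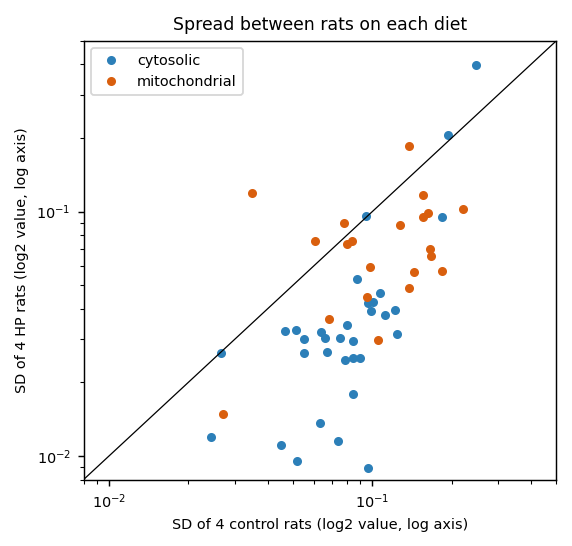
SD of the log2 value among the 4 HP rats (vertical, log axis) against the SD among the 4 control rats (horizontal, log axis) for 33 cytosolic (blue) and 21 mitochondrial (orange) genes, with the line of equal SD. Of the cytosolic points 30 lie below the line, as do 17 of the mitochondrial ones.

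Cytosolic genes with and without a pyrimidine run had close medians. Among the cytosolic genes that met the span minimum, 19 with a run of at least 8 pyrimidines had a median difference of 0.032 (range -0.071 to 0.150), and 9 without one had 0.028 (range -0.031 to 0.184). Rps24 and Rpl4, at nearly opposite ends of the class, both have such a run in their windows. A run in the window need not be part of the transcript. In 11 of these 28 windows it includes the annotated first base, so the split is not one of TOP and other mRNAs.

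Probe sets with several symbols were outside the rule, because they cannot be assigned to 1 gene. Of 36 such probe sets for ribosomal proteins 25 met the span minimum, and 23 of them were above 0 and 2 below, with a median difference of 0.053 (range -0.02 to 0.17). Proteins of the cytosolic ribosome whose symbols do not match the pattern included Rack1, the signalling scaffold at the head of the small subunit, at -0.04 with a standard error of 0.06, and Rpsa, the laminin-receptor protein, at -0.01 with a standard error of 0.05.

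Genes that build or regulate ribosomes were taken from lists, and limma called 0 of them. Of 61 cytosolic ribosome biogenesis genes measured, 18 met the span minimum, 7 above and 11 below 0, with a median difference of -0.040. Rank products called 1 higher (Rrs1, 5S particle assembly) and 3 lower of these 18, against 8.5% and 11.9% of all probe sets that spanned 0.05. The largest 2 differences were those of Tsr1, a factor of small-subunit maturation, and Ddx21, a nucleolar helicase. Tsr1 was at 8.72, 8.77, 9.08 and 8.89 in control and 8.42, 8.63, 8.74 and 8.50 in HP rats (-0.29 with a standard error of 0.10, FDR = 0.0177). Ddx21 was at 8.71, 8.46, 8.97 and 8.80 in control and 8.46, 8.44, 8.58 and 8.40 in HP rats (-0.27 with a standard error of 0.10, FDR = 0.0202). In both genes 3 of the 4 HP rats were at or below the lowest control rat at this rounding.

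Other mRNAs known to carry a TOP tract gave 7 genes that met the minimum, 2 above and 5 below 0, with a median of -0.039. Eef1a1, the elongation factor that brings aminoacyl-tRNA to the ribosome, was at 11.72, 11.65, 12.36 and 12.39 in control and 12.32, 11.53, 11.56 and 11.44 in HP rats. Its rats fell into a high and a low set on either diet, and the difference was -0.32 with a standard error of 0.24 (rank products FDR = 0.0106, limma adjusted p = 0.555). Eif3l, a subunit of initiation factor 3, differed by -0.11 with a standard error of 0.06.

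Of 25 genes listed for the S6 kinase and TOR pathway and measured, 8 met the minimum, 4 above and 4 below 0. Pdk1 (0.06), counted among those above 0, is the symbol of a pyruvate dehydrogenase kinase and not of a kinase of this pathway. Eif4ebp1, the repressor of cap-dependent translation that TOR phosphorylates, was at 8.11, 8.03, 7.88 and 7.98 in control and 8.30, 8.42, 8.26 and 8.19 in HP rats. The diets did not overlap, with a difference of 0.29 and a standard error of 0.08 (rank products FDR = 0.00689, limma adjusted p = 0.245). Larp1, which binds TOP tracts and was named after its values were seen, also showed no overlap but in the other direction, at 9.92, 9.93, 9.94 and 9.98 in control and 9.82, 9.84, 9.87 and 9.85 in HP rats (-0.09 with a standard error of 0.04, limma adjusted p = 0.407). Of all tested probe sets 3.1% were higher and 4.07% lower without overlap, and rank products called 8.5% and 11.9%. Deptor, an inhibitor within the TOR complexes, differed by 0.14 with a standard error of 0.12.

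Of 19 mitochondrial translation and ribosome assembly factors measured, 3 met the minimum. Mterf3, which binds mitochondrial DNA and takes part in mitochondrial ribosome assembly, was at 9.43, 9.46, 9.53 and 9.57 in control and 9.35, 9.16, 9.22 and 9.34 in HP rats. All HP rats were below all control rats, with a difference of -0.23 and a standard error of 0.06 (rank products FDR = 0.0225, limma adjusted p = 0.269). Mterf4, which guides an rRNA methyltransferase, differed by 0.11 with a standard error of 0.06.

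In whole liver, a change in the share of a cell type and a change in RNA per cell cannot be told apart. The summed level of 7 hepatocyte markers, on a log2 scale, ranged from 16.31 to 16.34 in control and from 16.29 to 16.32 in HP rats. Of the 4 that met the span minimum 1 was above and 3 below 0. Rank products called 1 lower, Cps1, the first enzyme of the urea cycle (-0.27, FDR = 0.0179, no overlap, limma adjusted p = 0.217). Hnf4a was also below 0 (-0.10 with a standard error of 0.10), but the paper lists it as up-regulated. Its sign here holds for 1 probe set only. All 7 Kupffer cell markers that met the span minimum were below 0 in difference. The sum of the 8 measured was 11.79 to 12.17 in control and 11.84 to 12.03 in HP rats. For sinusoidal endothelium, the 4 markers of 6 measured that met the minimum were above 0, and rank products called 2 higher, Stab2 and Kdr. The sum of the 6 was 11.68 to 11.83 in control and 11.82 to 11.96 in HP rats. For stellate cells and fibroblasts, the 5 of 7 measured that met the minimum were above 0. Their sum over all 7 was 11.44 to 11.74 in control and 11.48 to 11.71 in HP rats. The red cell sum ranged from 11.12 to 11.70 and from 11.44 to 11.66, and Hbb, the 1 marker that met the minimum, was called higher by rank products (0.24, FDR = 0.0293, limma adjusted p = 0.454). Of all probe sets that spanned 0.05, rank products called 8.5% higher and 11.9% lower. The marker genes named here were picked after their values were seen. Bile duct and lymphocyte markers were nearly constant. Their part in the ribosomal protein values was not tested.

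The difference between the 3′ and 5′ probe sets of GAPDH, a sign of RNA integrity, was 0.95 to 0.98 in control and 0.81 to 0.97 in HP rats (exact permutation p = 0.0857). For β-actin it was 1.89 to 2.16 and 2.04 to 2.10 (p = 0.429, exact permutation test). Its part in the results was not tested either.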

How the data were processed

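Total RNA of 8 livers (1 array per rat) was labelled with a 3′ IVT kit and hybridised to Affymetrix rat arrays. The deposited values are log2 levels that the authors summarised with FARMS, in R 2.13.1 per the submitters' processing notes. How arrays were normalized to each other is something the sources used here do not give. Precision is limited by the number of arrays. The 8 columns were matched to rats by accession, and 0 columns were left unmapped.

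Probe sets were named from an annotation table, using those with 1 symbol only. Of the 127 genes, 125 matched RefSeq (GRCr8) by gene ID. For each gene, the probe set with the highest mean among those spanning at least 0.05 stood for it. In R 4.3.3, limma 3.58.1 (trended, robust empirical Bayes, statmod 1.5.0) was fitted to all 4155 probe sets that span 0.05, two-sided, with Benjamini-Hochberg adjustment, and standard errors and intervals come from it. Rank products used all 31099 probe sets, 57 control probe sets included, and 1000 permutations within arrays (100 in alternatives), in Python 3.11.15 with numpy 2.4.6, pandas 2.3.3 and scipy 1.17.1. Figures were drawn with matplotlib 3.10.9. Both tests were checked on simulated data. Classes were described by counts and medians without a test. Pyrimidine or purine runs were read on the gene's strand, motifs on both strands, in 1 promoter per gene.

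Named genes were the 4 highest and 4 lowest of each class, those called or without overlap, common reference genes and paralogues, and the 2 largest differences of each list. Of these, Rps18, Rpl32, Rps4x, Rpl22l1, Rpl10l, Rpl36al and Rpl39l had no probe set named by that symbol alone (those of Rps18, Rpl32, Rps4x and Rpl22l1 carry several symbols), and Rplp0, Rpl3l, Rpl26l1, Rps27l and Mrps18c fell under the span minimum. The members, lists and rules were chosen with earlier results of these data known. Each replicate number stands for a different rat on each diet, and the labels do not say whether it marks a batch. The rats were housed singly. Alternatives were centring, quantile normalization, other span and level filters, plain empirical Bayes, array weights, the mean of probe sets or members, leaving out rats, and a replicate block.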

Additional observations from a re-analysis of the deposited data

Results flagged for a closer look

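In 72 groups of 4 rats (the diets of 34 named genes and of both classes), the highest or lowest rat was compared with the others by Dixon's ratio, for which chance alone marks some groups. For Mrpl19, a mitochondrial large-subunit protein, HP 1 had 8.14 while the other HP rats lay between 8.30 and 8.33 (ratio 0.861). For Rpl19, of the cytosolic large subunit, control 4 had 12.17 while the other control rats lay between 12.03 and 12.05 (ratio 0.852). Both ratios were above the critical value at the 95% level.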

How the results depend on the processing

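limma called 0 ribosomal protein genes in the 16 alternative fits as well, with a smallest adjusted p between 0.106 (array weights) and 0.579 (without HP 2). The 2 genes called higher by rank products became 1 after centring or quantile normalization (Rps24), and 0 when only probe sets spanning 0.05 were ranked or the dimmest 25% were left out. Leaving out 1 rat gave 0 to 6 such genes: 0 without HP 1, HP 2 or HP 3, 1 without control 1 or control 2 (Rps24) or HP 4 (Rpl39l1), 3 without control 3 and 6 without control 4 (Mrpl47, Rpl11, Rpl27a, Rps15a, Rps24 and Rps29). The cytosolic median stayed above 0 in every alternative, from 0.018 without control 1 to 0.066 without control 4, with 0.055 after centring and 0.044 when probe sets of several or lower-case symbols were added (chosen after seeing the data), and the share above 0 was between 72.7% and 90.9%. The mitochondrial median changed sign: it was 0.029 without control 3, 0.011 without HP 1 and 0.009 after centring, and -0.042 without control 1. The share of mitochondrial genes above 0 was 63.0% with no span filter and 28.6% to 76.2% when 1 rat was left out, highest without control 3. Of 34 named genes 10 changed sign in some setting, counted on rounded differences. Mrps16, not among them because its main difference rounds to 0, was at 0.02 after centring and -0.02 with array weights. The cause was not tested. With the replicate number as a block, rank products called 3 genes higher (Rpl39l1, Rps24 and Rps29) and 1 lower (Mrpl18), limma called 0, and the cytosolic median was 0.034. The same-number correlations of the rats' deviations were 0.48, 0.03, -0.12 and -0.20. With 4 rats per diet they cannot show whether the numbers mark a batch. The differences are near the spread between 4 rats. FARMS holds most dim probe sets nearly constant, and also bright ones such as those of Rps3a (mean 12.31) and Rplp0 (11.50). Genes under the span minimum carry no measurable difference, which does not show that their levels are stable.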
